A study of Mus musculus and blank sample with 768 samples.

Results

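The cells described here are endothelial cells sorted from mouse tumours as CD45- CD31+ GFP+, which the labels name Csf1r lineage endothelial cells. They filled plates KM3 and KM4, with 96 wells each. Wells under 50000 reads in genes, under 1000 detected genes or above 25% mitochondrial reads were left out. This kept 84 cells on KM3 and 85 on KM4, together 28.5% of the 592 kept cells of the series, and removed 23 wells. The read minimum fell between wells of 58373 and 49603 reads, the gene minimum between 1096 and 835 genes, and the mitochondrial maximum between 22.1% and 29.9%. The series holds 768 wells from tumours, lymph nodes and blood, sorted singly and read by SMART-seq2, which amplifies the full-length cDNA of each cell. Its title concerns the part of lymphatic endothelium in tumour vessels. The groups used for comparison were GFP- tumour endothelial cells (CD45- CD31+ GFP-, plate KM2, 84 cells), tumour macrophages (CD45+ CD31- GFP-, plate KM1, 81 cells) and lymph node endothelial cells that were GFP+ (98 cells) or GFP- (74 cells). The labels give the gate, the tissue and the cell name. The strain, the animals, their age, the tumour model, the transgene behind GFP and the time of sampling are not given in the sources used here.

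Because no label ties a cell to an animal, the cells of a gate are 1 sample, and no p-value is given for any difference below. Each statement is therefore given for KM3 and for KM4 side by side. Whether the plates hold cells of the same or of different animals is not known, so their likeness is a description and not a replicate check. The level of a gene on a plate is given in CPM, its summed reads per 1000000 summed reads in genes. Depth was alike, with a median of 798549 reads per cell on KM3, 848441 on KM4 and 827490 on KM2. The number of genes with a read was not. Its median was 2916 on KM3 and 3171 on KM4 but 3825 on KM2, and with every cell thinned to 100000 reads it was 2517, 2734 and 3347. A lower share of cells with reads on KM3 and KM4 than on KM2 goes with this difference, and its part in the shares was not tested.

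Endothelial cells line all vessels, and those of blood and lymphatic vessels share junction and adhesion genes but use different regulators. PROX1 is the transcription factor that keeps lymphatic identity, and LYVE1, podoplanin and VEGFR-3 are its usual companions, although VEGFR-3 also appears on blood vessels that sprout. Within blood vessels, capillaries carry proteins that take up lipid and water, arteries use Notch signalling, veins use COUP-TFII, and sprouts have tip cells that secrete apelin and angiopoietin-2.

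Pan-endothelial genes were found throughout the population. A gene counted as found when at least 25% of the cells had reads of it on KM3 and on KM4, and 19.2% of the 20542 genes with any read met this. All 15 pan-endothelial genes did. Pecam1 (chr11:106654217-106750628, GRCm38), the gene of CD31 and so part of the gate, had 0 to 5440 CPM per cell on KM3 with a median of 1256, and 0 to 5354 on KM4 with a median of 985. Its reads were in 97.6% and 96.5% of cells. Cdh5 (chr8:104101625-104144511), which encodes the junction protein VE-cadherin and was not sorted on, ranged from 0 to 1616 CPM on KM3 (median 374.8) and from 3.97 to 2075 on KM4 (median 434), in 95.2% and 100% of cells. Among macrophages Pecam1 reads were in 13.6% of cells and Cdh5 reads in 1.23%. Egfl7, a secreted vessel protein, and Eng, a TGF-beta co-receptor, were in at least 96.4% of cells on each plate. Erg, an endothelial transcription factor, was the pan-endothelial gene with the lowest shares, 46.4% and 49.4%.

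**Figure D1:**
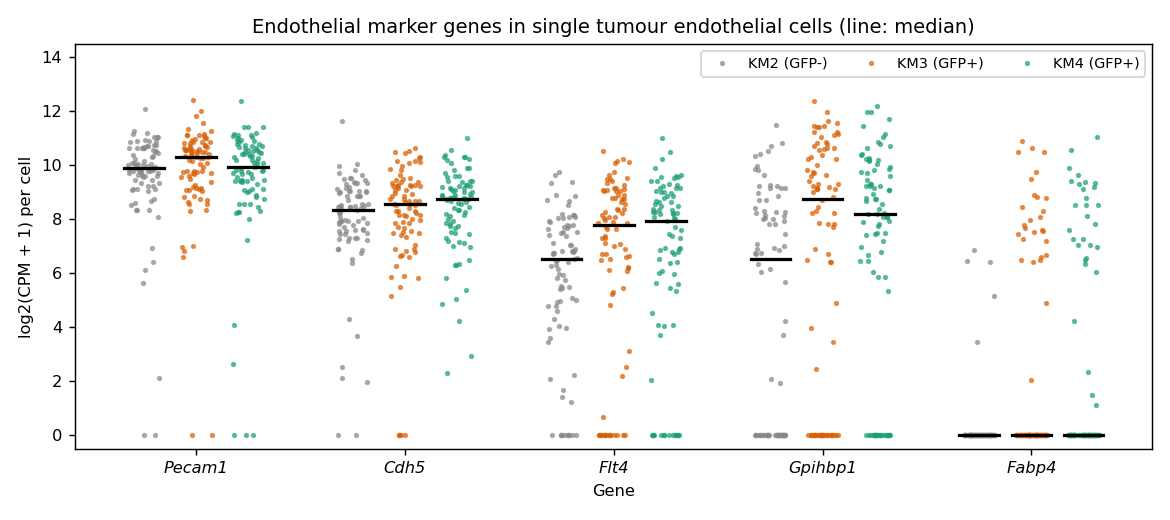
Level of 5 marker genes in every kept cell, as log2(CPM + 1) on the vertical axis, for GFP- endothelial cells of plate KM2 (grey) and GFP+ endothelial cells of KM3 (orange) and KM4 (green); each point is 1 cell, horizontal scatter is random and the black line is the median. Pecam1 and Cdh5 lie at like heights on the 3 plates, and Fabp4 has reads in 5 cells on KM2, 28 on KM3 and 30 on KM4.

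Genes of blood vessel endothelium were found as widely. Of 14 such genes 13 were found on both plates, and each of the 14 had reads on both. Cd34, a sialomucin, was in 96.4% and 95.3% of cells, and Plvap, the diaphragm protein of fenestrae and caveolae, in 94.05% and 94.1%. Per kilobase of exon, Plvap stood at 790 CPM on KM3 and 1003 on KM4, against 191.2 and 185.3 for Pecam1 and 103.1 and 110.9 for Cdh5. The exception was Cxcl12, a chemokine gene of arterial and capillary cells, with reads in 8.33% and 20% of cells. All 7 genes of caveolae and their diaphragm and all 12 basement membrane genes were found, and 9 of 10 junction genes. The junction gene that was not found was Ocln, the tight junction protein occludin, in 10.7% and 18.8% of cells. Both chains of collagen IV, Col4a1 and Col4a2, had reads in at least 98.8% of cells on each plate, and Sparc, a matrix protein of remodelling tissue, had reads in every cell of both plates.

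Lymphatic genes were found only in part. Of 12 lymphatic genes 3 met the 25% level, namely Flt4, Nrp2 and Itga9, and Reln had 0 reads. Flt4 (chr11:49609263-49652739), the gene of VEGFR-3, ran from 0 to 1467 CPM per cell on KM3 with a median of 220.03, and from 0 to 2066 on KM4 with a median of 246.6. It was in 83.3% of cells (95% Clopper-Pearson interval 73.6 to 90.6) and 83.5% (73.9 to 90.7). Nrp2, a co-receptor for VEGF-C, was in 59.5% and 70.6%, and Itga9, an integrin of lymphatic valves, in 29.8% and 28.2%. Both are also known from blood endothelium. Prox1 (chr1:190118035-190170714) had 0 reads in the 84 cells of KM3, which allows a share of up to 3.57%, and reads in 1 of 85 cells on KM4. In lymph node GFP+ cells, sorted with the same gate, Prox1 was in 79.6% of cells.

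No tumour GFP+ cell had reads of 3 or more genes of a lymphatic core. The core had 6 genes, Prox1, Lyve1, Pdpn, Mmrn1, Reln and Ccl21a. At least 3 of these had reads in 0 of the tumour GFP+ cells of both plates, which allows a share of up to 1.78%, in 0 of the 84 cells of KM2 and in 42 of 98 lymph node GFP+ cells (42.9%, 32.9 to 53.3). In those lymph node cells Reln was in 4.08% and Ccl21a in 2.04%, so the cut is a strict one. On KM3 73 cells had reads of none of the 6, 10 of 1 gene and 1 of 2 genes, and on KM4 72, 12 and 1. The cells with 2 genes both had reads of Lyve1, the hyaluronan receptor, and Mmrn1, a multimerin, with 19 reads of Lyve1 on KM3 and 130 on KM4. They also had 1135 and 759 reads of Plvap. Plvap reads were in 97 of 98 lymph node GFP+ cells too, and Cd34 reads in 3 of 98. Reads of Plvap therefore do not set a tumour cell apart from the lymph node GFP+ cells, most of which had Prox1 reads. The single Prox1 cell had 170 reads of Prox1, 58 of Flt4, 98 of Maf, 638 of Plvap and 409 of Fabp4, but 0 of Lyve1, Pdpn, Mmrn1, Reln, Ccl21a and Cd34.

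Maf, a transcription factor gene used by lymphatic cells and by macrophages, needs a separate reading. It was in 23.8% of cells on KM3 and 14.1% on KM4, but in 12.2% and 11.8% of thinned cells. Where it had reads, the median was 9.69 CPM on KM3 and 61.9 on KM4, so many KM3 cells held few reads of it. Tumour macrophages had 142.5 CPM of Maf in 85.2% of cells, and whether Maf reads in the GFP+ cells come from elsewhere was not tested.

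**Figure D2:**
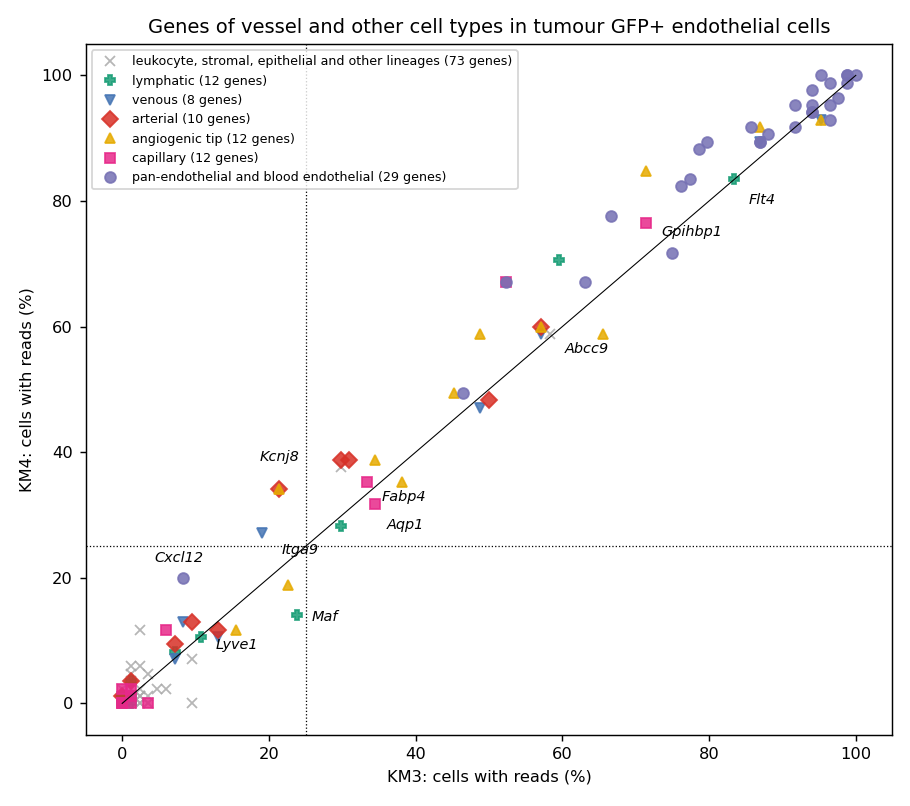
Share of cells with reads (%) on KM3 (horizontal) and KM4 (vertical) for genes of vessel types and of other lineages in tumour GFP+ endothelial cells; each symbol is a gene, dotted lines mark 25% and the thin line equal shares. The pan-endothelial and blood endothelial genes fill the upper right, the lymphatic gene Flt4 lies among them, and genes of other lineages lie near 0 apart from Kcnj8 and Abcc9.

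Capillary genes were split between a few that were common and a majority that were near 0. Found were Gpihbp1, Rgcc, Fabp4 and Aqp1, or 4 of 12. Gpihbp1 (chr15:75596628-75599481) encodes the protein that holds lipoprotein lipase on the capillary wall. It ran from 0 to 5324 CPM on KM3 with a median of 435 and from 0 to 4761 on KM4 with a median of 296.2, in 71.4% (60.5 to 80.8) and 76.5% (66.03 to 85) of cells. Fabp4 (chr3:10204088-10208576), a carrier of fatty acids inside the cell, had a median of 0 on both plates and a highest cell of 1920 and 2098 CPM. Its reads were in 33.3% of cells (23.4 to 44.5) on KM3 and 35.3% (25.2 to 46.4) on KM4, and the median of the cells with reads was 214.02 and 253.7 CPM. Aqp1, a water channel, was in 34.5% and 31.8% of cells, and Rgcc, a cell cycle regulator of capillaries, in 52.4% and 67.1%.

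The other 8 capillary genes were rare. Lpl, the lipase that Gpihbp1 binds, and Tcf15, a transcription factor of lipid uptake, had 0 reads on both plates. Cd36, the fatty acid translocase, was in 1 cell on KM3 and 0 on KM4. Car4, Aqp7, Meox2 and Fabp5 were in at most 3 cells of a plate, and Btnl9 in 5.95% and 11.8% of cells. In lymph node GFP+ cells Gpihbp1, Fabp4 and Aqp1 were in 2, 1 and 2 of 98 cells. In lymph node GFP- cells they were in 32.4%, 50% and 45.9%.

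Arterial and venous genes were both present, and neither list was found whole. Of 10 arterial genes 4 were found, the Notch ligands Dll4 (57.1% and 60% of cells) and Jag1 (50% and 48.2%), the netrin receptor Unc5b (30.95% and 38.8%) and the ephrin Efnb2 (29.8% and 38.8%). Gja4 and Gja5, connexin genes of arteries, were in 7.14% and 1.19% of cells on KM3 and in 9.41% and 3.53% on KM4. Of 8 venous genes Lrg1, Vwf, Ephb4 and Nr2f2 were found. Lrg1, a secreted glycoprotein that modifies TGF-beta signalling, was in 95.2% and 92.9% of cells, and Nr2f2, the gene of COUP-TFII, in 48.8% and 47.1%. Genes of venules that bind leukocytes were scarcer, with Selp in 19.05% and 27.1% and Ackr1 in 7.14% and 7.06%. Of 6 genes of high endothelial venules, the lymph node vessels through which lymphocytes enter, 0 were found and Chst4, Fut7, Gcnt1 and Madcam1 had 0 reads.

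Genes of angiogenic tips were common. Of 12, 9 were found on both plates. Trp53i11 was in 86.9% and 91.8% of cells, Mcam, an adhesion molecule, in 95.2% and 92.9%, Nid2, a basement membrane linker, in 71.4% and 84.7%, and Kcne3, a potassium channel subunit, in 65.5% and 58.8%. The ligands were in fewer cells. Apln, the gene of apelin, was in 45.2% and 49.4%, Angpt2, the gene of angiopoietin-2, in 34.5% and 38.8%, and Adm, the gene of adrenomedullin, in 38.1% and 35.3%. Among VEGF receptors Flt1 had 86.9 and 87.9 CPM per kilobase, Kdr 49.6 and 54.3, and Flt4 33.1 and 37.8, so that their order was the same on the plates. Of the ligands, Vegfa was in 1.19% and 8.24% of cells and Vegfc in 25% and 20%.

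Markers of other cell types were at or near 0. Ptprc, the gene of CD45 and so part of the gate, had 0 reads in every cell of both plates, and 0 of 12 macrophage and 0 of 8 leukocyte genes were found. Their summed level was 5.80 and 2.65 CPM for the macrophage list and 9.82 and 39.9 for the leukocyte list, against 39687 and 7510.3 CPM in macrophages. Csf1r, the gene that names the lineage, had reads in 4 cells on KM3 and 2 on KM4, and more than 10 reads in 2 cells of each plate. Lyz2, the lysozyme gene of myeloid cells, had 1 read each in 8 cells of KM3 and 0 on KM4. Fcer1g, an adaptor of immune receptors, had more than 10 reads in 5 and 6 cells, with up to 859 reads. More than 10 reads of Csf1r, Fcer1g, Laptm5, Coro1a, Cd68, Mrc1 or Ctss were present in 10 cells of KM3, 17 of KM4 and 9 of KM2. Of these, 0 on KM3, 1 on KM4 and 0 on KM2 had more than 10 reads of more than 1 of these 7 genes, all had Pecam1 reads, and none had a read of Ptprc or Tyrobp. Of 6 adipocyte genes, 8 fibroblast genes, 6 epithelial genes and 8 lymphocyte genes, 0 were found.

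Kcnj8 and Abcc9 were the 2 found of 8 genes on the pericyte list. They encode the pore and the regulatory subunit of a potassium channel that closes when ATP is plentiful, known best from pericytes and smooth muscle. Kcnj8 (chr6:142564837-142571614) had a median of 0 on both plates and a highest cell of 2060 and 3000.1 CPM, with reads in 29.8% (20.3 to 40.7) and 37.6% (27.4 to 48.8) of cells. Abcc9 (chr6:142587862-142702315) had a median of 13.5 and 22.7 CPM and a highest cell of 2106 and 1903, with reads in 58.3% and 58.8%. Of the genes that define pericytes, Pdgfrb, Rgs5, Cspg4, Notch3 and Des had 0 reads on both plates, and Acta2 had reads in 1 cell. In lymph node GFP+ cells Kcnj8 was in 19.4% of cells, at 68.8 CPM, and Abcc9 in 0 of 98. In lymph node GFP- cells each was in 1.35%.

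Kcnj8 and Abcc9 are neighbours, 16.2 kilobases apart on chromosome 6, and varied together from cell to cell. On KM3 Abcc9 had reads in 22 of 25 cells with Kcnj8 reads (88%, 68.8 to 97.5) and in 27 of 59 without (45.8%, 32.7 to 59.2). On KM4 it had reads in 28 of 32 (87.5%, 71.005 to 96.5) and 22 of 53 (41.5%, 28.1 to 55.9). The Spearman correlation was 0.46 over 84 cells and 0.61 over 85. On KM2, where Kcnj8 was in 13.1% of cells, it was 0.44. Another pair that varied together was Apln and Adm, 2 secreted ligands of sprouting vessels, at 0.51, 0.44 and 0.47.

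The promoters of these 2 pairs are shown because their genes varied together. The sequences are RefSeq's for GRCm38.p6, 5′ to 3′ on the gene's strand, and end at the base before the annotated start. Capitals mark TTCCTG, the reverse complement of CAGGAA, a sequence that endothelial ETS factors such as ERG can bind, where a window holds it.
Kcnj8, chr6:142571615-142571864, minus strand: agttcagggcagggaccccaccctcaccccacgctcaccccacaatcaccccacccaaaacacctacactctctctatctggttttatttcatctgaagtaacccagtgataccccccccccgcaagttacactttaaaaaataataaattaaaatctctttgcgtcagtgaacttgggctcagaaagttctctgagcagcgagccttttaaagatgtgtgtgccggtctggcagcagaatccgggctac
Abcc9, chr6:142702316-142702524, minus strand: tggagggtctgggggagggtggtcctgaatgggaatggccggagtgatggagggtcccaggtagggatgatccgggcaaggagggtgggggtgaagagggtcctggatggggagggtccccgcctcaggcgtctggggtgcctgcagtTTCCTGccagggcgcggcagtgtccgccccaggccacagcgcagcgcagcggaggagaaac
Apln, chrX:48034854-48035103, minus strand: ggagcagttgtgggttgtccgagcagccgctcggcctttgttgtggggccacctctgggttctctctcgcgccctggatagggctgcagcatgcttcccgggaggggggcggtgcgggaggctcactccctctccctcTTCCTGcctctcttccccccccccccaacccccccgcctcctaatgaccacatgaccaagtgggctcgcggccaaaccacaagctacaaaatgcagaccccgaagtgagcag
Adm, chr7:110627407-110627656, plus strand: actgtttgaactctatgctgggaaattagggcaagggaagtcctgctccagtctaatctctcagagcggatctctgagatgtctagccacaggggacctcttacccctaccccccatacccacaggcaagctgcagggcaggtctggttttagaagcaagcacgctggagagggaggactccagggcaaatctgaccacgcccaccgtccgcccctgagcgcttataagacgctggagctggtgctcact
CAGGAA, searched on both strands, was in the windows of Abcc9 and Apln, and 25.6% of 32536 promoters of 250 bases hold it. ACGTG, the core of the hypoxia response element, was in 0 of the 4 windows and in 16.65% of all promoters. ACAAT, a core that SOX factors bind, was in the window of Kcnj8 and in 27.4% of all. A match or its absence in these letters is a description of the window. The Abcc9 window is the shortest of the 4, since it was ended where the GENCODE gene begins.

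Fabp4, Aqp1 and Kcnj8 also tended to share cells. On KM3 Aqp1 had reads in 17 of 28 cells with Fabp4 reads (60.7%, 40.6 to 78.5) and in 12 of 56 without (21.4%, 11.6 to 34.4). On KM4 the numbers were 22 of 30 (73.3%, 54.1 to 87.7) and 5 of 55 (9.09%, 3.02 to 19.95). The intervals do not overlap on either plate, but they cover counting error over the cells of 1 sample and are no test. Kcnj8 and Aqp1 also rank highest for likeness to Fabp4 over these same cells. The sharing therefore describes these cells and supports no more. The cells with and without Fabp4 had a median of 2916 and 2921 genes on KM3 and of 3067 and 3243 on KM4. Kcnj8 was in 50% of the Fabp4 cells (30.6 to 69.4) and 19.6% of the others (10.2 to 32.4) on KM3, and in 66.7% (47.2 to 82.7) and 21.8% (11.8 to 35.01) on KM4, so that its intervals overlap on KM3. Gpihbp1 was in 89.3% against 62.5% and in 90% against 69.1%, with overlapping intervals on both plates.

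Counting all 3 genes, 37 cells on KM3 had reads of none, 19 of 1, 21 of 2 and 7 of all 3. On KM4 the counts were 41, 12, 19 and 13. Among GFP- cells on KM2, 67 of 84 had none, 12 had 1, 5 had 2 and 0 had all 3. These 3 genes have the highest ratios over KM2 among the genes of the naming rule, so a low count on KM2 follows from their choice.

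**Figure D3:**
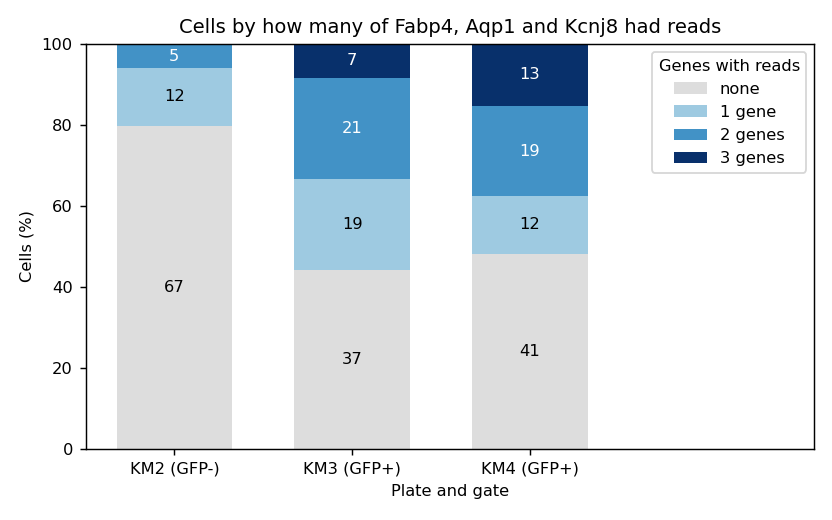
Share of cells (%, vertical axis) with reads of none, 1, 2 or all 3 of Fabp4, Aqp1 and Kcnj8 on plates KM2, KM3 and KM4, with the number of cells printed in each segment. All 3 genes had reads in 7 cells on KM3, 13 on KM4 and 0 on KM2.

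The genes most like Gpihbp1 over the cells joined matrix, channel and tip genes. Ranked by the lower of the correlations on the 2 plates, they were Sparc (Spearman 0.46 on KM3 and 0.52 on KM4), Abcc9 (0.53 and 0.44), Kcnj8 (0.42 and 0.53), Trp53i11 (0.41 and 0.43), Inhbb, a subunit gene of activin (0.52 and 0.40), and Angpt2 (0.39 and 0.47). For Fabp4 they were Kcnj8 (0.36 and 0.50), Aqp1 (0.36 and 0.67), Gpihbp1 (0.40 and 0.35), Gng11, Trp53i11 and Plvap. The gene least like Fabp4 was Tmem252, at -0.36 and -0.47. For Apln they were Trp53i11 (0.54 and 0.47), Adm, Angpt2 (0.40 and 0.49), the glycolysis genes Pgk1 and Tpi1, and Coro1c. Given the number of genes detected, the correlation of Gpihbp1 with Sparc was 0.46 and 0.53 and that of Fabp4 with Kcnj8 0.36 and 0.50. On KM4 the correlations of Apln with its likest genes all fell, most for Pgk1 (0.39 to 0.28) and Tpi1 (0.36 to 0.26). The cells of a plate share a preparation and differ in depth and in genes detected, and these genes were ranked on the same cells, so the values describe them and support no more.

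Flt4 was linked with part of this group. Its correlations were 0.27 on KM3 and 0.35 on KM4 with Gpihbp1, 0.28 and 0.39 with Abcc9, and 0.06 and 0.11 with Fabp4. Its likest genes were Kcne3 (0.36 and 0.42), the semaphorin gene Sema3f (0.35 and 0.35), the semaphorin receptor gene Plxnd1 (0.43 and 0.30), Ednrb, an endothelin receptor gene (0.29 and 0.47), Ackr3, a scavenging chemokine receptor gene (0.29 and 0.33), and Aplp2. With the ligand genes Apln and Angpt2 its correlations were 0.11 and 0.08 on KM3 and 0.19 and 0.24 on KM4. With its co-receptor gene Nrp2 the sign differed, -0.11 and 0.23. Selp, the venular adhesion gene P-selectin, was most like Lrg1 (0.29 and 0.38) and least like Unc5b (-0.26 and -0.36), with Kcne3 (-0.22 and -0.31) and Angpt2 (-0.21 and -0.21) also among the least like.

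Ly6a and Ly6c1, surface proteins of blood endothelium, varied together (0.52 and 0.63) and with Lrg1 (0.40 and 0.27 for Ly6a), and against channel and tip genes. Kcnj8 and Ly6c1 correlated at -0.41 and -0.29, and at 0.05 on KM2. Apln and Ly6a correlated at -0.39 and -0.21, and at -0.34 on KM2. Both Ly6 genes were common, with Ly6c1 in 77.4% and 83.5% and Ly6a in 88.1% and 90.6% of cells.

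**Figure D4:**
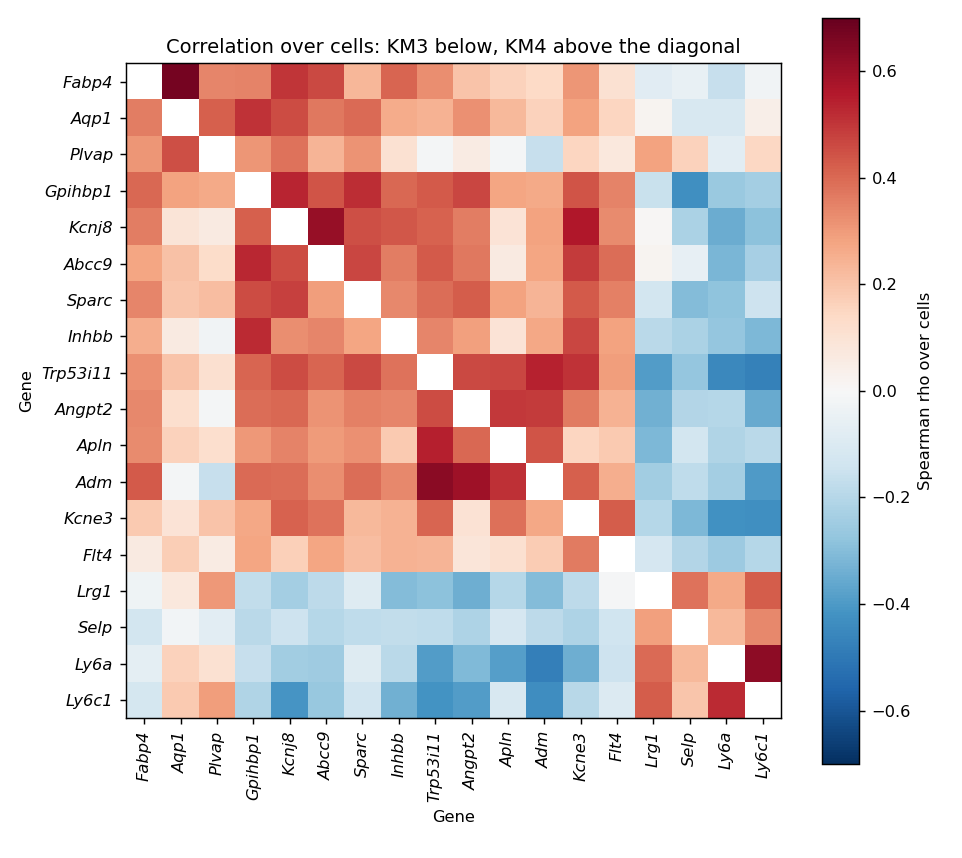
Spearman correlation over cells between 18 genes of tumour GFP+ endothelial cells, with KM3 (84 cells) below and KM4 (85 cells) above the diagonal; red is positive, blue negative, on a scale from -0.7 to 0.7. Fabp4 to Kcne3 form a mostly red block on both sides, and Lrg1, Selp, Ly6a and Ly6c1 are mostly blue against it. Plvap differs, being positive with Lrg1 (0.30 and 0.28) and Ly6c1 (0.29 and 0.14). Aqp1 is also positive, though weakly, with Lrg1 (0.07 and 0.02) and Ly6c1 (0.18 and 0.04). Several of the genes rank as most or least alike on these same cells, so the pattern follows in part from their choice.

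Whole lists varied together to different degrees. The median pairwise correlation over all 3413 genes found was 0.04 on KM3 and 0.06 on KM4. Of 15 lists with at least 3 found members, 11 lay above these medians on both plates. The highest were the immediate early genes of tissue handling (0.32 and 0.28), capillary genes (0.30 and 0.24), tip genes (0.24 and 0.25), glycolysis and low oxygen genes (0.23 and 0.29) and basement membrane genes (0.19 and 0.31). The 3 found lymphatic genes, Flt4, Nrp2 and Itga9, were at 0.17 and 0.12, above the medians of all genes. Their pairs were not alike, since Flt4 and Nrp2 correlated at -0.11 on KM3 and 0.23 on KM4. Venous genes (0.03 and -0.02) lay below the medians of all genes, and arterial genes (0.07 and 0.11) just above. Pan-endothelial genes lay above only narrowly on KM3 (0.046 against 0.043). In thinned cells 10 of 12 lists lay above on both plates, and arterial genes were not among them. With Pearson correlation 10 of 15 lists did. Gene sets of like size were not compared, so these counts are a description. The mean scaled level of the capillary genes in a cell correlated with that of the tip genes at 0.41 and 0.53, or 0.40 and 0.58 given the number of genes detected. Tip genes correlated with basement membrane genes at 0.48 and 0.68 and with glycolysis and low oxygen genes at 0.44 and 0.51, and with venous genes at -0.20 and -0.12. Given the number of genes detected, these were 0.47 and 0.64, 0.44 and 0.39, and -0.23 and -0.23. Nid2 is on both the tip and the basement membrane list.

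The genes that varied most for their level were, in order, Cldn5, Sat1, Plvap, Lrg1, Sparcl1, Trp53i11, Eno1, Igfbp5, Gpihbp1, Prss23, Ly6c1, Ctnnb1, Tubb6, Tubb5 and Tuba1a. Cldn5, the main claudin of endothelial tight junctions, led with a variance 2.34 times that of genes of like mean on KM3 and 2.30 times on KM4. It ranged from 0 to 9306 CPM (median 1689) and from 0 to 6754 (median 1322). Igfbp5, a binding protein of insulin-like growth factors, had a median of 0.63 and 0 CPM and a highest cell of 5351 and 4475. Of the 100 most variable genes of each plate, 59 were shared (59% of each list).

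Principal components were computed on each plate alone. The first held 6.98% and 9.07% of the variance and followed the number of genes with reads (Spearman 0.93 and 0.95). Its high end on KM3 was made of household genes such as Serbp1, Pebp1 and Npm1 and its low end was led by Malat1, a nuclear RNA. The 10 genes at each end on KM3 had the same sign on KM4 in 13 of 20 cases, and those chosen on KM4 in 14 of 20. The second held 2.67% and 2.84%, with Col4a2 and Lars2 high on both plates and Ubb, H3f3b and Ppia low, and kept its signs in 10 of 10 and 9 of 10 cases.

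The third component, looked at because the first followed the number of genes detected, held 2.12% on each plate. Its sign was set so that the tip genes are positive. On KM3 its high end held Adm, Angpt2, Kit, Gpihbp1, Chst1, Sparc, Trp53i11, Kcnj8 and Cd63-ps, a near-identical copy of Cd63 whose reads are uncertain. Its low end was Slco2a1, Apold1, Thbd, Abcg2, Aplnr, Sfpq, Pkp4, Dek, Rnf213 and Srsf3. All 20 genes at the ends had the same sign on KM4, and 18 of the 20 chosen on KM4 had the same sign on KM3. Thbd, the anticoagulant thrombomodulin, and Aplnr, the receptor for apelin, lay at the end away from Adm and Angpt2, although on KM4 their correlations were only -0.08 and -0.07. All 4 capillary genes, both channel genes and all 7 glycolysis and low oxygen genes were positive on both plates, against 947 positive and 1194 negative of 3413 genes. In other settings the component with the highest mean loading of tip genes was read, which was the third on KM3 and the second on KM4 both for cells thinned to 100000 reads and for genes in at least 50% of cells. These gave 23 and 21 of 40 same signs, so the agreement between plates depends on the setting. The component also correlated with the mitochondrial share, at -0.48 and -0.19, and its part was not tested.

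Cell cycle genes marked a minority. At least 6 of 12 such genes had reads in 7 of 84 cells on KM3 (8.33%, 3.42 to 16.4), 15 of 85 on KM4 (17.6%, 10.2 to 27.4) and 7 of 84 on KM2 (8.33%, 3.42 to 16.4). These cells also had more genes with reads, a median of 4634 against 2896 on KM3 and 3958 against 3027 on KM4. On each of the 3 plates 2 cells lay near the 6-gene limit.

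The 2 plates of the gate differed from each other in 18.7% of 10652 measured genes by at least 2-fold, where a measured gene had 1 CPM or more and was read in 5% of cells or more. Here 7.9% were higher on KM3 and 10.8% on KM4. Of the vessel lists, 0 of 15 pan-endothelial, 0 of 5 capillary, 3 of 14 blood endothelial, 1 of 8 arterial, 1 of 8 venous, 2 of 6 lymphatic and 2 of 12 tip genes were that far apart. Igfbp7, a secreted protein of tumour vessels, was at 2141 CPM on KM3 and 5673 on KM4, a log2 ratio of -1.41. Vcam1, a leukocyte adhesion molecule, was at 13.3 and 91.4 CPM (-2.69), and Pgf, placental growth factor, at 144.3 and 45.4 (1.65). Levels of these genes therefore cannot be given for the gate as a whole.

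GFP+ and GFP- tumour endothelium were compared on each GFP+ plate against the same plate KM2, which asks how the Csf1r lineage cells differ from other endothelium of the tumour. KM3 differed from KM2 by at least 2-fold in 21.5% of 11275 measured genes and KM4 in 19.4%. Over the same genes KM3 and KM4, plates of 1 gate, differed in 19.9%. Higher on both plates were 3.94% of the genes and lower on both 4.48%, and 0.514% went opposite ways. The median log2 ratio of all genes was -0.13 and -0.12. Both comparisons share the KM2 cells, and the gate cannot be told apart from the plate, since no plate holds both gates.

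Most vessel lists lay within these limits. None of 15 pan-endothelial, 14 blood endothelial, 12 tip, 7 caveolar and 12 basement membrane genes was 2-fold away in the same direction on both plates. Of 12 capillary genes 5 were measured, 4 of them on each of the 3 plates, and Btnl9 did not pass the minimum on KM2. Of these 5 genes 3 were higher and 0 lower, against 3.94% and 4.48% of all measured genes. The list median, which includes Btnl9, was 1.33 and 1.11 on the log2 scale. Fabp4 was at 3.76 CPM on KM2 (3.34 to 4.22), 145.3 on KM3 (142.6 to 148.1) and 111.9 on KM4 (109.6 to 114.3), ratios of 4.94 and 4.57. Aqp1 was at 11.2, 106.1 and 104.6 CPM (3.14 and 3.12), and Gpihbp1 at 299.1, 755 and 642 (1.33 and 1.10). For Fabp4 and Aqp1 the shares of cells moved with the levels, from 5.95% and 7.14% on KM2. For Gpihbp1 the share was 59.5% on KM2.

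The lymphatic genes went in both directions. Of the 12, 7 were measured, and 5 of these passed the minimum on each of the 3 plates. Ccl21a passed on KM2 alone and Maf did not pass on KM2, so that the direction of both was set by the filter. Flt4 was at 133.2 CPM on KM2, 272.7 on KM3 and 311.03 on KM4, ratios of 1.03 and 1.22, but in a like share of cells (88.1%, 83.3% and 83.5%). With the stricter cell filter its KM3 ratio was 0.97. Maf had ratios of 3.70 and 3.80 from a level of 0.04 CPM on KM2. Tbx1, a T-box transcription factor, fell by 3.55 and 2.30 on the log2 scale, from 58.7 CPM in 39.3% of cells to 4.09 and 11.1 CPM in 7.14% and 8.24%. Lyve1 (-3.04 and -1.13) and Ccl21a (-3.93 and -4.52), a chemokine for dendritic cells, were lower as well. Reads of Ccl21a were in 1 cell on KM3 and 3 on KM4. Tbx1 and Lyve1 were also at least 2-fold apart between KM3 and KM4, so the size of their ratios depends on the plate. Vegfc, a ligand of VEGFR-3, was higher (1.73 and 1.27).

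Single members of other lists moved. Lower on both plates were 1 of 8 measured arterial, 1 of 8 venous and 1 of 10 junction genes, against 4.48% of all measured genes. Higher were 1 of 6 mesenchymal transition, 1 of 2 pericyte and 1 of 3 leukocyte genes, against 3.94%. Single genes of such short lists are no result about the lists. Sox17, an arterial transcription factor, was lower (-1.20 and -1.44), with reads in 57.1% of cells on KM2, 21.4% on KM3 and 34.1% on KM4. Il1r1, the interleukin-1 receptor, was lower (-1.34 and -1.51), as was Ocln (-1.89 and -1.06). Kcnj8 was higher (2.83 and 2.87), at 26.2 CPM on KM2 and 192.2 and 198.1 on the GFP+ plates, whereas Abcc9 passed 2-fold only on KM3 (1.16 and 0.82). Zeb1, a repressor of epithelial genes, was higher (1.17 and 1.16). Fcer1g, which did not pass the minimum on KM2, had ratios of 3.32 and 4.51, with more than 10 reads in 0 cells of KM2 and in the 5 and 6 cells given above.

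Among genes with at least 20 CPM in at least 25% of cells of the higher group, those with the highest ratios on both plates besides Fabp4, Aqp1 and Kcnj8 were Sipa1l2 (2.35 and 2.33), Dhx9 (2.21 and 2.35), Cd300lg (1.60 and 1.72), Pgm2l1, Itpripl2, Kdm5b and Ddx6. With the mean of per-cell CPM in place of summed reads, Itpripl2 had 0.77 on KM3 and was no longer 2-fold higher. Cd300lg, a mucin-like receptor of capillaries and venules, was at 45.5 CPM on KM2 and at 139.9 and 151.8 on the GFP+ plates. The lowest under the same minimum besides Tbx1 were Ifi204 (-2.39 and -2.16), Tmem87a, Chka, Itm2a (-2.10 and -2.18), Wfdc1, Scgb3a1, Tmem214, Lpcat4 and Tnfrsf9 (-2.25 and -1.59). Itm2a, a membrane protein gene, had reads in 50% of cells on KM2, 14.3% on KM3 and 22.4% on KM4. Tnfrsf9, the gene of the co-stimulatory receptor 4-1BB, was in 59.5%, 20.2% and 21.2%.

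**Figure D5:**
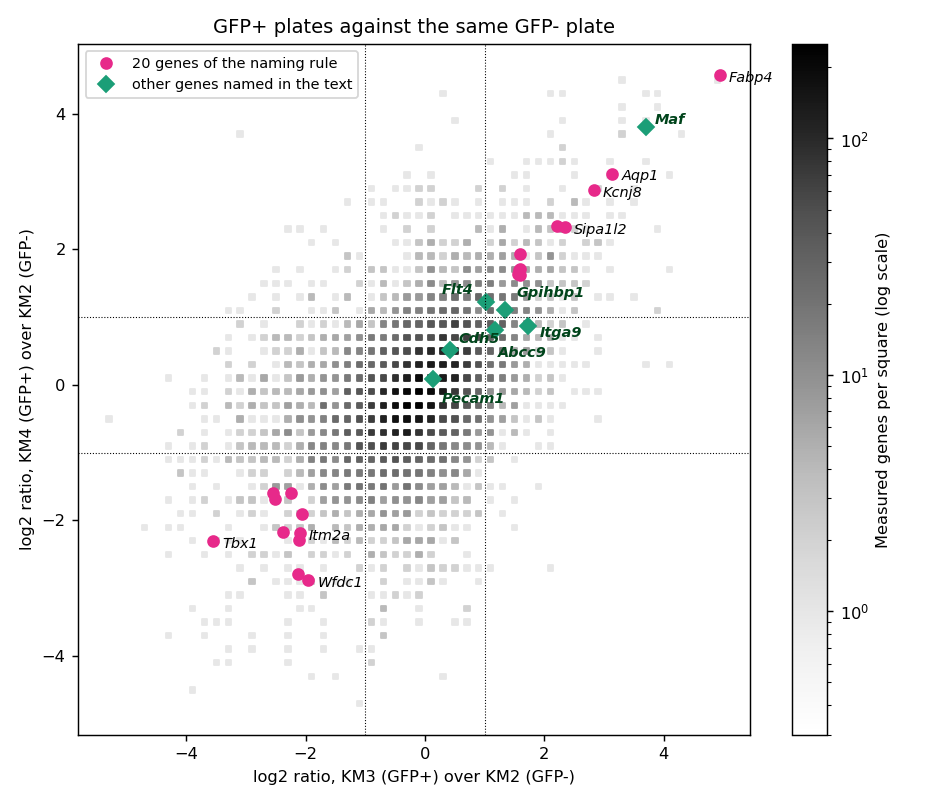
Log2 ratio of each measured gene on KM3 (horizontal) and KM4 (vertical) over the same GFP- plate KM2, as grey squares shaded by the number of genes on a log scale, with genes of the naming rule as pink circles and some other genes of the text as green diamonds; dotted lines mark 2-fold. Of the genes with a printed name, Fabp4, Maf, Aqp1, Kcnj8 and Sipa1l2 lie farthest to the upper right and Tbx1, Wfdc1 and Itm2a to the lower left. The pink genes were picked by these ratios, so their places follow from the choice. Maf did not pass the minimum on KM2, so its direction was set by the filter. Both axes share the KM2 cells.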

How the data were processed

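Read counts per gene were deposited by the authors as a table of raw counts, whole numbers of 0 or more in every well. FastQC 0.11.4, STAR 2.4.1b, Subread 1.4.6-p2 and mm10 stand in the submitters' processing notes, with no role given. Per the labels' protocols, cDNA had 20 amplification cycles and no molecular identifiers are mentioned, so counts are PCR reads, and intervals and floors cover counting error only. Of 51826 rows, 92 that shared a symbol were summed, which left 51734 symbols, and 0 columns stayed without a sample. Wells took their gate from the labels, and 0 kept wells of KM2, KM3 and KM4 had identical counts. No doublet caller was run on singly sorted cells.

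CPM of summed reads carry exact Poisson 95% intervals, shares of cells exact Clopper-Pearson 95% intervals, and a share of 0 the limit of 3 cells. Ratios use a pseudocount of 1 CPM. Correlations are Spearman's over per-cell CPM, and components used scaled log2(CPM + 1) on each plate. With 1 sample a gate, no test was run. Python 3.11.15 with numpy 2.4.6, pandas 2.3.3 and scipy 1.17.1 was used, and the steps were tested on simulated data. Positions are GENCODE vM21 on GRCm38, the assembly of mm10, and promoters RefSeq GRCm38.p6.

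Named were the 5 markers, Ptprc, Csf1r and Prox1, the 4 commonest and the unread members of each list, the ends of components (10 genes each, 5 for the second), the 6 genes most like each of 5 anchors (a sixth, Gja4, was in under 15% of cells), the 15 most variable genes and the 10 highest and 10 lowest ratios over KM2 with at least 20 CPM in 25% of cells. Other list members were named as examples after their values were seen. The cells, the 29 lists of 249 genes and the comparisons were chosen with earlier results of these data known. A gene at an end of the third component is not reported here.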

Additional observations from a re-analysis of the deposited data

How the results depend on the processing

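Changing 1 setting at a time, 55 values that answer a comparison stayed near those given and 13 did not. Of the values for single genes, lists or pairs, 432 stayed and 12 did not. Of the log2 ratios and pair correlations among these, 0 changed sign, and the sign of the other values was not checked. With reads in at least 50% of cells as the level for a found gene, 2 capillary, 1 arterial and 5 tip genes were found. The third component, added after seeing the data, kept 23 of 40 signs in thinned cells and 21 among genes in at least 50% of cells. Of the genes measured in each setting, 10.4% were 2-fold apart between KM3 and KM4 with a pseudocount of 5 CPM, 6.45% with at least 10 CPM in 25% of cells and 7.45% (3854 of 51734) with no filter, against 18.7% (1987). Higher than KM2 on both plates were 1.56% and 1.76% (99 of 5631) in the first and the second of these settings, against 3.94% (444), and lower 1.92%, 1.81% and, with no filter, 2.02% (1044), against 4.48% (505). With no filter 1.26% (650) were higher, and 38.4% of the calls on both plates were higher, against 46.8%. The filters change which genes are counted, and the cause was otherwise not tested. A stricter filter on cells (200000 reads, 2000 genes and 10% mitochondrial reads) moved none of these counts by more than 1.5 times. No paired analysis was possible because replicate numbers only name wells and no result comes from a test. With 1 sample a gate, the unknown number of animals limits every result. Some values, such as the signs of the third component, also changed in thinned cells. A gene with 0 reads on both plates could be read in up to 1.78% of such cells.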

Other observations

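Genes of MHC class II, which present antigen to T cells, had their highest levels in few of the GFP+ cells. On KM3 47 of 84 cells, on KM4 55 of 85 and on KM2 38 of 84 had reads of none of 5 such genes. Above 100 CPM in sum were 26, 19 and 30 cells. The 3 highest cells held 55.2% and 63.5% of the summed per-cell CPM, against 28.8% on KM2. The highest cell had 9852 CPM on KM3 and 8762 on KM4, against 1680.3 on KM2. Those 3 cells of each plate had 0 reads of Ptprc, and 1 and 0 reads of Lyz2. The lowest Pecam1 count among them was 412 reads on KM3 and 0 on KM4. Of 4 measured class II genes 1 was at least 2-fold above KM2 on both plates, against 3.94% of all measured genes. This gene was H2-Eb1 (2.37 and 1.71 on the log2 scale), a ratio carried by reads in 11.9% and 7.06% of cells. A single gene is no result about the list.

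Interferon response genes had median log2 ratios over KM2 of -0.93 on KM3 and -0.44 on KM4, against -0.13 and -0.12 for all measured genes. Of 12, 1 was at least 2-fold lower on both plates, Ifit1, which encodes an inhibitor of viral RNA translation, where 4.48% of all measured genes were. Only 9 of the 12 passed the minimum on each of the 3 plates, and Ifit1 was not among them. The medians include the genes that did not pass throughout. Between KM3 and KM4 4 of 12 differed at least 2-fold, where 18.7% of all did. Of the 12 genes on the immediate early list 1, Ier3, was lower on both plates, against 4.48% of all measured genes. The medians of that list were -0.79 and -0.33.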
